A study of Mus musculus with 6 samples.

Results

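A set of 10 genes that mark the formation, fusion and bone-resorbing activity of osteoclasts were followed in RAW264.7 cells cultured on polyetheretherketone (PEEK), an implant polymer. The genes were Tnfrsf11a, Oscar, Nfatc1, Dcstamp, Ocstamp, Atp6v0d2, Itgb3, Src, Acp5 and Ctsk, matched by symbol through the platform annotation. All 10 were found, each with 1 probe set, among 19505 genes measured. RAW264.7 is an established mouse macrophage line. It was grown for 3 days on pristine PEEK, the control, or on PEEK with an altered surface, called modified PEEK, with 3 arrays per surface. What was done to that surface is left unsaid in the labels. Growth medium with serum and antibiotics was the same for both, and the labels name no osteoclast-inducing cytokine. Each surface was seeded in triplicate, and whether the triplicates were separate experiments is unstated, so the p-values rest on the spread among these arrays, which may be technical.

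Osteoclasts arise when precursors of the macrophage lineage receive the cytokines M-CSF and RANKL. RANK, the receptor of RANKL, works together with immunoreceptors that signal through ITAM adaptor proteins, and both converge on the transcription factor NFATc1. NFATc1 then drives genes for cell fusion, for the ring of adhesive podosomes that seals the cell onto bone, and for the secreted acid and proteases that dissolve the matrix. RAW264.7 cells are widely used as osteoclast precursors because they form multinucleated resorbing cells when given RANKL.

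Of the 10 genes, 4 fell on modified PEEK, 0 rose and 6 did not pass the test (limma, adjusted p under 0.05 over all genes). Among all 19505 genes, 5.15% were called lower and 5.24% higher, 10.4% in all. The genes that fell were Atp6v0d2 (5.39-fold), Acp5 (2.65-fold), Src (2.08-fold) and Dcstamp (1.79-fold), which act in fusion, signalling from adhesions and resorption. The receptor gene Tnfrsf11a and the transcription factor gene Nfatc1 had changes above 0 that did not pass, at 0.36 and 0.31 on the log2 scale. The 2 surfaces did not overlap for 7 of the 10 genes, 5 lower and 2 higher, beside 28.8% of all genes, 14.5% lower and 14.3% higher. The median change of the 10 genes was -0.33, beside 0.0088 for all genes.

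Signals were log2 values with array medians over genes between 4.98 and 5.10, and with 3 arrays per surface the array number sets the precision. A background of 3.72 was set at the 95th percentile of the means of 1412 odorant and vomeronasal receptor genes, a family used mainly by sensory neurons. All 10 genes exceeded it on at least 1 surface, although the means of Ocstamp, Oscar and Itgb3 lay within 1 log2 unit of it. With genes below background on both surfaces left out, 20.1% of 13229 genes were called, 1344 lower and 1316 higher. Of the 10 genes, 4 were then lower and 1 higher. Macrophage markers were well represented, with 10 of 11 measured markers above background and list means per array of 8.58 to 8.71 on pristine and 8.64 to 8.72 on modified PEEK. Of those 10, 2 rose (Adgre1 and Aif1) and 2 fell (Fcgr1 by 0.85 and Itgam by 0.59). Mertk, below background on both surfaces, was also called higher. Calcr, the calcitonin receptor gene and a marker of mature osteoclasts, lay below it on both surfaces (3.27 and 3.16), while the other 6 of 7 mature osteoclast markers exceeded it on at least 1 surface and the list means were 5.86 to 5.90 and 5.73 to 5.92. Markers of lymphocytes, neutrophils, dendritic and stromal cells had list means of at most 4.39 on any array. Of these 4 lists, only the dendritic cell list held a gene that passed. It was the integrin gene Itgax, which macrophages also express, and which was lower on modified PEEK. In these bulk samples, fewer cells of a type and less RNA per cell cannot be told apart. Poly-A spike-in probe sets were lower on modified PEEK by a mean difference of -0.25 (two-sided exact permutation p = 0.2; this design allows no p below 0.1). Hybridisation spike-in probe sets, added after labelling, were also lower, by a mean difference of -0.17 (two-sided exact permutation p = 0.2). Scaling the arrays to the poly-A spikes moved the median change of all genes to 0.26 and the calls to 1575 higher and 290 lower, from 1023 and 1004. The median of the 10 genes moved to -0.09. Relative to all genes it was -0.34, a value that cannot move, because the scaling shifts every gene of an array alike. The spikes' part in the results below was not tested.

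**Figure D1:**
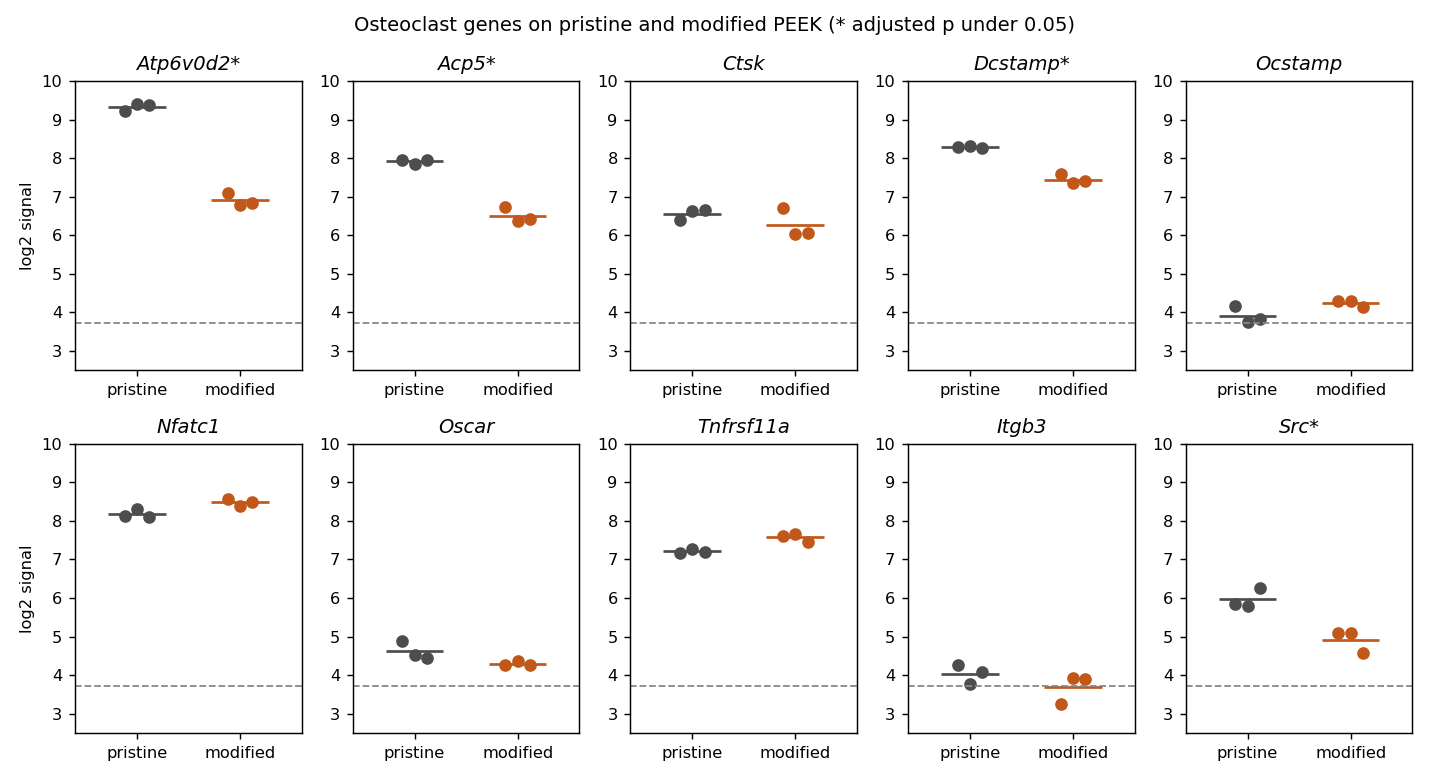
Log2 signal of each of the 10 genes on the 3 arrays per surface (points, grey for pristine and orange for modified PEEK) with the group mean (line). The dashed line is the background of 3.72 log2, and an asterisk marks an adjusted p under 0.05. Atp6v0d2 lies at 9.23 to 9.41 on pristine and 6.78 to 7.10 on modified PEEK, while Ocstamp and Itgb3 lie near the background on both.

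Among the receptors, the gene for RANK was well above background and did not pass the test. Tnfrsf11a read 7.16, 7.28 and 7.18 on pristine PEEK and 7.60, 7.66 and 7.45 on modified PEEK. All 3 modified arrays were above all 3 pristine arrays. The difference was 0.36 ± 0.10 (SE; 95% interval 0.14 to 0.59), with an adjusted p of 0.0554 by limma, just outside the threshold. Of 10 alternative settings it passed under 4: with dim genes left out in either of 2 ways (adjusted p = 0.0328 without the lowest 25% of genes), with an intensity trend (0.00868) and scaled to the spikes (0.0390). It did not pass under the other 6 (adjusted p up to 0.122) or in any of 6 fits on 5 arrays (0.0635 to 0.183). Oscar encodes a collagen-binding receptor that signals through the adaptor of the Fcer1g gene. It read 4.88, 4.53 and 4.44 on pristine and 4.27, 4.37 and 4.25 on modified PEEK. The groups did not overlap, but the difference of -0.32 ± 0.13 (SE) did not pass (adjusted p = 0.188).

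Nfatc1, the gene for the transcription factor on which osteoclast formation depends, read 8.12, 8.31 and 8.09 on pristine PEEK and 8.58, 8.38 and 8.50 on modified PEEK. The modified arrays were again all higher, with a narrow gap between 8.31 and 8.38. Its difference of 0.31 ± 0.11 (SE; 95% interval 0.07 to 0.55) did not pass by limma (adjusted p = 0.119). It passed with an intensity trend (adjusted p = 0.00978) and scaled to the spikes (0.0423), in both cases as higher.

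Of the 3 fusion genes, Dcstamp and Atp6v0d2 fell, and Ocstamp did not pass. Dcstamp and Ocstamp encode related multi-pass membrane proteins that are both needed for precursors to fuse. Dcstamp read 8.30, 8.31 and 8.25 on pristine PEEK, and 7.58, 7.36 and 7.39 on modified PEEK. All modified arrays were below all pristine ones, and Dcstamp fell by 0.84 ± 0.10 (SE; adjusted p = 0.00125 by limma, lower on 3 of 3 arrays). Ocstamp read 4.16, 3.74 and 3.83 on pristine and 4.30, 4.29 and 4.15 on modified PEEK. Its groups overlapped, at levels near the background, and the difference of 0.33 ± 0.13 (SE) did not pass (adjusted p = 0.163). With a pristine mean of 3.91 over a background of 3.72, Ocstamp had little room to show a fall. Within each array, the log2 difference of Dcstamp from Ocstamp was lower on modified PEEK by a mean change of -1.17, with no overlap between surfaces (two-sided exact permutation p = 0.1, the smallest possible; 0.125 adjusted over 5 such pairs).

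Atp6v0d2 encodes the d2 subunit of the membrane sector of the vacuolar proton pump, a form enriched in osteoclasts that also takes part in fusion. It showed the largest change of the 10. Its signal was 9.23, 9.41 and 9.37 on pristine PEEK and 7.10, 6.78 and 6.84 on modified PEEK. The lowest pristine array was more than 2 log2 units above the highest modified one, and Atp6v0d2 fell by 2.43 ± 0.11 (SE; adjusted p = 4.02e-05 by limma). Atp6v0d1, the gene for the ubiquitous d1 subunit, fell by 0.43 (adjusted p = 0.0290). That call was kept without modified PEEK replicate 1 and lost without any other array (adjusted p 0.126 without pristine PEEK replicate 3). The change of d2 relative to d1 within arrays was -2.00, again without overlap (two-sided exact permutation p = 0.1, the smallest possible; 0.125 adjusted over the 5 pairs).

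The genes closest to Atp6v0d2 were sought among 13228 others above background, by Euclidean distance over the 6 arrays after centring each gene. They were Aqp9 (distance 0.314), a water and glycerol channel gene, Qpct (0.327), encoding glutaminyl cyclase, the guanylate-binding protein gene Gbp8 (0.406), the orphan receptor gene Gprc5a (0.408) and the membrane protein gene Emp2 (0.472). Their changes ran from -2.75 for Emp2 to -2.14 for Gbp8. Changes near the -2.43 of Atp6v0d2 follow from choosing genes by this distance.

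Of the adhesion and signalling genes, Src fell and Itgb3 did not pass. Src encodes the tyrosine kinase required for the ruffled border through which osteoclasts secrete acid. It read 5.83, 5.80 and 6.26 on pristine PEEK and 5.08, 5.09 and 4.56 on modified PEEK. The groups were separate although each held 1 array that departed from the other 2, pristine replicate 3 upward and modified replicate 3 downward. Src fell by 1.05 ± 0.18 (SE; adjusted p = 0.00814 by limma), and with the gene's own spread in place of the moderated one the adjusted p was 0.0847. Fgr, a related kinase gene of myeloid cells, read 0.38 higher on modified PEEK without passing (adjusted p = 0.104). Src relative to Fgr changed by -1.43 within arrays, without overlap (two-sided exact permutation p = 0.1, the smallest possible; 0.125 adjusted).

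Itgb3 encodes the beta subunit of the vitronectin receptor of osteoclasts. It read 4.26, 3.77 and 4.07 on pristine PEEK and 3.26, 3.92 and 3.89 on modified PEEK. The groups overlapped and the modified mean of 3.69 was below the background, so no fold is given (adjusted p = 0.371 by limma). Itgav, its alpha partner, was well above background at 8.35 ± 0.12 and 8.29 ± 0.12 (SD, n = 3) and did not pass (adjusted p = 0.829 by limma).

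Of the resorption genes, Acp5 fell and Ctsk did not pass. Acp5 encodes tartrate-resistant acid phosphatase, the enzyme used to stain osteoclasts. Its signal was 7.95, 7.86 and 7.94 on pristine PEEK, and 6.75, 6.36 and 6.42 on modified PEEK. The modified arrays were all more than 1 log2 unit lower, and Acp5 fell by 1.41 ± 0.12 (SE; adjusted p = 0.000369 by limma). Acp2, another lysosomal acid phosphatase gene, differed by 0.08 (adjusted p = 0.793), and Acp5 relative to Acp2 changed by -1.49 within arrays with no overlap (two-sided exact permutation p = 0.1, the smallest possible; 0.125 adjusted).

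Ctsk encodes cathepsin K, the protease that cleaves bone collagen. It read 6.39, 6.64 and 6.66 on pristine PEEK and 6.70, 6.04 and 6.07 on modified PEEK. Modified PEEK replicate 1 was the highest of all 6 arrays and the other 2 modified arrays were the lowest. The difference was -0.29 ± 0.18 (SE; 95% interval -0.71 to 0.13; adjusted p = 0.425 by limma). Without modified PEEK replicate 1 it was -0.51 and passed (adjusted p = 0.0448). Modified PEEK replicate 1 was also the highest of its group for Atp6v0d2, Acp5 and Dcstamp, and these 3 falls passed with or without it. Ctsk relative to the cathepsin L gene Ctsl did not separate the surfaces (0.29; two-sided exact permutation p = 0.3).

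**Figure D2:**
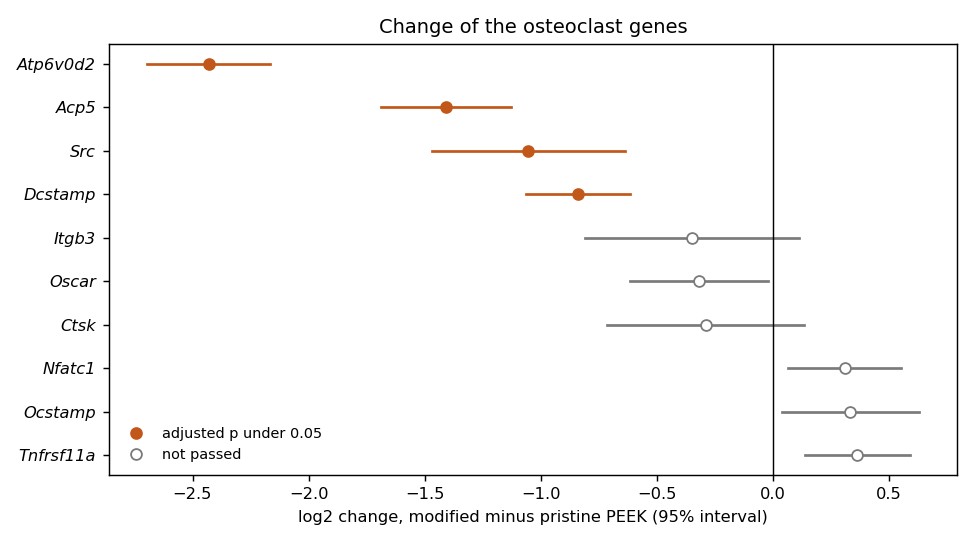
Log2 change of each of the 10 genes, modified minus pristine PEEK (points), with its 95% interval (lines) from the moderated fit over all genes. Filled orange points passed at an adjusted p under 0.05, and the 4 that did run from -2.43 for Atp6v0d2 to -0.84 for Dcstamp, while the intervals of Ctsk and Itgb3 cross 0.

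The promoters of the genes that fell were set beside those that did not pass. The 250 bases before the annotated start were taken from RefSeq (GRCm38.p6), which gave 7 windows for 5 of the 10 genes: 3 for Acp5 and 1 each for Src, Ctsk, Oscar and Tnfrsf11a. Atp6v0d2, Dcstamp, Ocstamp, Nfatc1 and Itgb3 were not analysed here for their promoters. Shown are the most downstream Acp5 window (chr9:22130599-22130848, minus strand), which held the most matches of the 3, the Src window (chr2:157424043-157424292, plus strand) and, for contrast, that of Ctsk (chr3:95498960-95499209, plus strand). Capitals mark matches on either strand to the motifs searched, and the last base is the one before the start.
Acp5: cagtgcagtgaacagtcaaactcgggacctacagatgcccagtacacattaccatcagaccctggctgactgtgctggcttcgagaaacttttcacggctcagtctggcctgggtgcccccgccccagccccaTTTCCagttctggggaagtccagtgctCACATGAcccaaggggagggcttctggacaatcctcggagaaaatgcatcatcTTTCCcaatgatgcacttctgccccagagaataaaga
Src: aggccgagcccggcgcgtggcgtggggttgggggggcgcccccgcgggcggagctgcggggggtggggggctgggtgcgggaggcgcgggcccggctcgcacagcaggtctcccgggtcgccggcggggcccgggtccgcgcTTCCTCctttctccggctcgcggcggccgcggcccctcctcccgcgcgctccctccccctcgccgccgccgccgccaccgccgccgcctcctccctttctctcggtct
Ctsk: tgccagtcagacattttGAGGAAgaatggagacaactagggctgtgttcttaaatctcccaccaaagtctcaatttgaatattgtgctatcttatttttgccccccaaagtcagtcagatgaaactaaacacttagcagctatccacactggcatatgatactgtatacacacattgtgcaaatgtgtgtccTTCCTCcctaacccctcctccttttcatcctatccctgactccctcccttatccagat

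The motifs were those of factors known from osteoclast genes: AP-1 (TGANTCA), the NFAT core (GGAAA), the E-box of MITF and TFE factors (TCACGTG), the M-box of MITF (TCATGTG) and the PU.1 core (GAGGAA). The PU.1 and NFAT cores share 4 letters and can overlap. The Acp5 window shown held 2 NFAT cores and 1 M-box, the latter 90 to 84 bases before the start. The other 2 Acp5 windows each held 1 NFAT core. The Src window held 1 PU.1 core, that of Ctsk 2, and that of Oscar 3 NFAT cores and 1 PU.1 core. The Tnfrsf11a window held none of the 5 motifs. Among all 32851 RefSeq windows of this length, 55.6% held the NFAT core, 23.3% the PU.1 core, 6.75% the AP-1 motif, 3.25% the M-box and 3.13% the E-box. These are matches of letters, and no binding was measured.

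The other genes of the pathway were read from 8 lists with 152 distinct measured genes, of which 31 fell and 9 rose (20.4% and 5.92%, beside 5.15% and 5.24% of all genes). Shares of all genes, here and below, include genes below background, whereas 140 of the 152 were above it on at least 1 surface. With genes below background left out, 41 of the 140 list genes kept were lower and 12 higher. Beside them, 1344 of 13229 genes were lower and 1316 higher (20.1% in either direction). Another 14 listed genes were not analysed here. Scaled to the spikes, 7 were lower and 13 higher. The number changed was 26, 24 and 21 when pristine PEEK replicate 1, 2 or 3 was left out, in that order, and 24 when modified PEEK replicate 3 was.

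Proton pump and acid secretion genes fell in 8 of 23 cases and rose in 0 (34.8% lower, beside 5.15% of all genes), with a median change of -0.32. The values of 21 of the 23 were below 0. Led by Atp6v0a1, a membrane-sector subunit gene that fell from 9.40 ± 0.01 to 8.62 ± 0.04 (SD, n = 3; adjusted p = 0.00102 by limma), they included Atp6v1e1 (-0.59), Atp6v1h (-0.58) and Atp6v1g1 (-0.56) of the ATP-splitting sector. Clcn7, the chloride-proton exchanger gene of the resorbing membrane, fell by 0.67 (adjusted p = 0.0132; 0.0556 without modified PEEK replicate 3, and 0.0541 and 0.0562 without pristine PEEK replicate 1 and 3). The accessory subunit genes Atp6ap1 and Atp6ap2 fell by 0.38 and 0.41, and with Atp6v0d1 completed the 8. Both accessory genes kept their call, of the fits on 5 arrays, only without modified PEEK replicate 1. Atp6v1h, Atp6v1g1, Atp6ap1 and Atp6ap2 were named after their values were seen. Tcirg1, which encodes the a3 subunit that osteoclasts use, did not pass (-0.07; 95% interval -0.28 to 0.13). Atp6v1a, a catalytic subunit gene of the ATP-splitting sector, differed by -0.33 and did not pass (adjusted p = 0.0551), but passed as lower under 6 of 10 alternatives, among them leaving out the lowest 25% of genes (0.0301). Car2, the carbonic anhydrase gene that supplies protons, read 10.09 ± 0.21 and 10.52 ± 0.19 (SD, n = 3) and did not pass (adjusted p = 0.114 by limma). Car2 passed as higher under 2 of 10 alternatives, with an intensity trend (0.00077) and scaled to the spikes (0.0394). With genes below background left out, 14 of the 23 were lower and 0 higher, beside 1344 and 1316 of 13229 genes. Scaled to the spikes, the list median was -0.07, with 0 genes lower and 1 higher. Relative to all genes it was -0.33, which such scaling cannot move. Leaving out 1 array left 4 lower without modified PEEK replicate 3 or pristine PEEK replicate 1 or 3, and 5 without modified PEEK replicate 2 or pristine PEEK replicate 2.

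**Figure D3:**
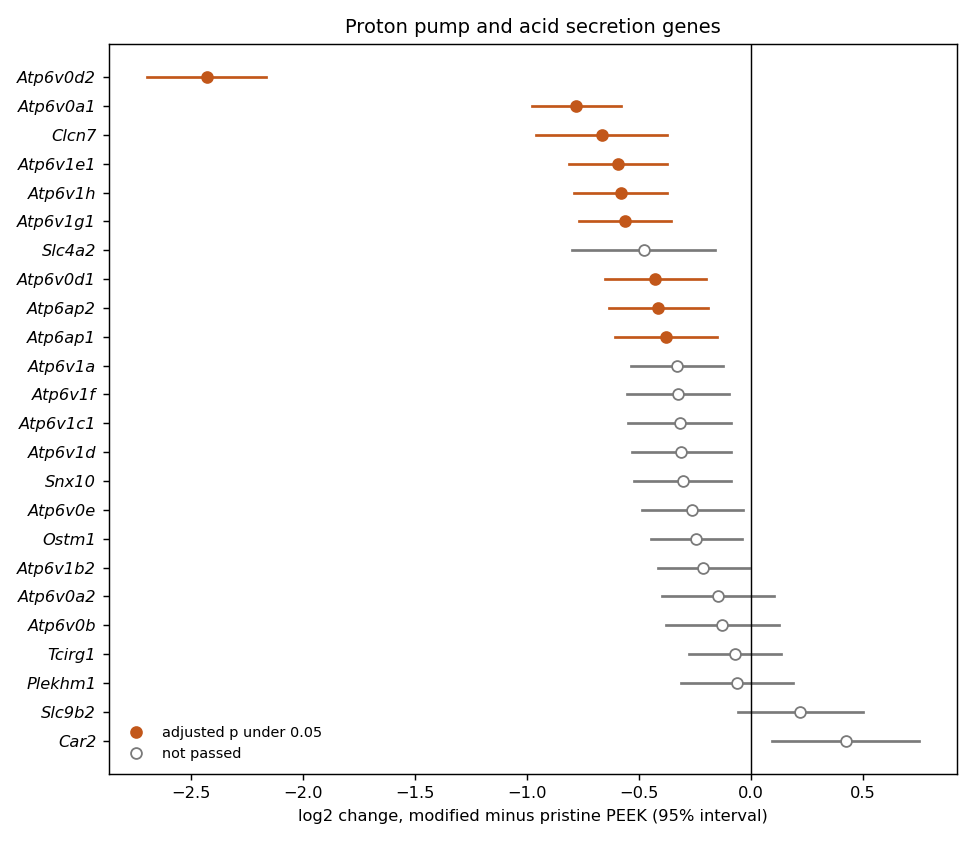
Log2 change, modified minus pristine PEEK, of Atp6v0d2 and the 23 measured proton pump and acid secretion genes (points) with 95% intervals (lines). Filled orange points passed at an adjusted p under 0.05. Atp6v0d2 stands at -2.43, the next gene, Atp6v0a1, at -0.78, and Car2 at 0.42 is the highest.

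Transcription factor genes of the osteoclast pathway were changed in 10 of 18 cases, 3 higher and 7 lower (16.7% and 38.9%, beside 5.24% and 5.15% of all genes). Fos, whose product pairs with Jun proteins as AP-1 and acts upstream of Nfatc1, rose from 7.02 ± 0.02 to 7.99 ± 0.04 (SD, n = 3). All 3 modified arrays were above all pristine ones (change 0.97 ± 0.09 SE; adjusted p = 0.000425 by limma). Of the related Fos-family genes, Fosl1 fell by 1.03 (adjusted p = 0.0865 with the ordinary statistic without shrinkage) and Fosl2 fell by 0.75. Of the Jun-family genes, Jund fell by 0.52 and Junb fell by 0.51, while Jun differed by 0.02 and did not pass (95% interval -0.24 to 0.27). Myc fell by 1.49. The NF-kB genes Relb and Rela fell by 0.50 and 0.34. Mitf, a partner of NFATc1 at the Acp5 and Ctsk genes, rose by 0.42 (adjusted p = 0.0391), and Ppargc1b, a coactivator gene linked to osteoclast mitochondria, by 0.55. With single arrays removed, Mitf still passed without modified PEEK replicate 2 and in no other case (adjusted p up to 0.159). Jund kept its call only without modified PEEK replicate 1 (up to 0.11), Rela passed in none of these fits (up to 0.166), and Junb lost it without modified PEEK replicate 3 or pristine PEEK replicate 2 or 3. Ppargc1b kept it without modified PEEK replicate 2 or pristine PEEK replicate 2 alone, and Relb lost it without pristine PEEK replicate 3 (0.0505). Spi1, the gene of PU.1, stayed near 12 (11.95 ± 0.04 and 11.85 ± 0.03; SD, n = 3) and did not pass, nor did Tfe3 (-0.13; adjusted p = 0.520 by limma). Fosl2, Jun, Junb, Jund, Relb, Rela and Ppargc1b were named after their values were seen. The number changed was 6 without pristine PEEK replicate 1 or 2, 4 without pristine PEEK replicate 3 and 5 if modified PEEK replicate 3 was left out. With genes below background left out, 3 of the 17 kept were higher and 8 lower, beside 1316 and 1344 of 13229 genes. Scaled to the spikes, 3 were higher and 2 lower, and Fosl2, Junb, Jund, Relb and Rela no longer passed.

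RANK and M-CSF signalling genes changed in 4 of 18 cases, 1 higher and 3 lower (5.56% and 16.7%, beside 5.24% and 5.15% of all genes). The higher share was near that of all genes. Csf1, the gene of M-CSF itself, read 5.77, 5.89 and 6.24 on pristine PEEK and 4.15, 4.24 and 3.62 on modified PEEK. That is a 3.90-fold difference (adjusted p = 0.000535 by limma) that brought it close to the background of 3.72. Csf1r, its receptor gene, read 11.18 ± 0.03 and 11.43 ± 0.03 (SD, n = 3) and did not pass (adjusted p = 0.114 by limma). The surfaces did not overlap for Csf1r, which passed as higher under 3 of 10 alternatives, among them leaving out genes below background (0.0489). Gab2, an adaptor of RANK, fell by 0.76 (adjusted p = 0.00305; 0.0690 scaled to the spikes). Ikbkg, the regulatory subunit gene of the IkB kinase, fell by 0.71, a call lost without pristine PEEK replicate 2 or 3 (adjusted p = 0.0867 and 0.0807). Mapk14, the p38 alpha kinase gene, named after its value was seen, rose by 0.37 and passed in no fit on 5 arrays (adjusted p up to 0.138). Akt1 did not pass (-0.09). Tnfsf11, the RANKL gene, was below background on pristine PEEK and near it on modified PEEK (3.58 and 3.90), and Tnfrsf11b, the gene of its decoy receptor, was below it on both (3.24 and 3.55). The number changed was 2 without pristine PEEK replicate 2 or 3.

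ITAM co-stimulation genes changed in 4 of 16 cases, 2 in each direction (12.5% each, beside 5.24% higher and 5.15% lower of all genes). All 16 were above background on at least 1 surface. With genes below it left out, the same 2 and 2 were called, 25% of the list, near the 20.1% of the 13229 genes kept. The B-cell linker gene Blnk rose by 0.48 and the Tec kinase gene by 0.38, while the Fc receptor gene Fcgr4 fell by 0.86 and Lcp2, the adaptor SLP-76, by 0.44. Tec was named after its value was seen. The adaptor genes through which OSCAR and related receptors signal did not pass: Fcer1g differed by -0.24 (adjusted p = 0.125) and Tyrobp by 0.09 (0.655), and Clec5a by -0.26 (0.138). The number changed was 0 without pristine PEEK replicate 2 or 3, 2 without pristine PEEK replicate 1, and 1 if modified PEEK replicate 2 or 3 was left out. Fcgr4 also missed the threshold without modified PEEK replicate 1 (adjusted p = 0.0597). Of 15 brakes on osteoclast formation, 1 fell and 0 rose (6.67% lower, near the 5.15% of all genes). It was Dusp1, a MAP kinase phosphatase gene (-0.84; adjusted p = 0.00110). Lilrb4a (-0.26) and the Notch effector gene Rbpj (-0.27; adjusted p = 0.0899) did not pass. The surfaces did not overlap for Rbpj, which passed as lower under 5 of 10 alternatives, among them leaving out the lowest 25% of genes (0.0483). Without modified PEEK replicate 1, 2 of these genes were lower.

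Cell fusion genes other than the 3 above fell in 2 of 21 cases and rose in 0, with a median change of 0.03. That is 9.52% lower and 0% higher, beside 5.15% and 5.24% of all genes. The share called in either direction, 9.52%, was near the 10.4% of all genes. Cd200r1, the receptor gene for the fusion-linked ligand CD200, fell by 0.88 (adjusted p = 0.00229) and the sheddase gene Adam8 by 0.75 (0.00203). Scaled to the spikes, Adam8 no longer passed (adjusted p = 0.0688). The tetraspanin gene Cd9 (0.22) and the hyaluronan receptor gene Cd44 (-0.20) did not pass. Of 27 integrin adhesion and podosome genes, 5 fell and 2 rose (18.5% and 7.41%, beside 5.15% and 5.24% of all genes), the higher share being near that of all genes. Itga4, an alpha integrin gene, rose by 0.92 (adjusted p = 0.000731), and Pik3r1, a regulatory subunit gene of PI3 kinase, by 0.45. The ubiquitin ligase gene Cblb (-0.71), the actin crosslinker gene Actn1 (-0.65), the leukocyte integrin genes Itgam (-0.59) and Itgb2 (-0.41) and the paxillin gene Pxn (-0.39) fell. Pik3r1, Itgam, Itgb2 and Pxn were named after their values were seen. Of the fits on 5 arrays, Pik3r1 passed only without modified PEEK replicate 2 or pristine PEEK replicate 3, and Itgb2 and Pxn only without modified PEEK replicate 1. Talin and Cdc42 genes did not pass (Tln1 -0.24, Cdc42 -0.02). The number changed was 4 without modified PEEK replicate 3 or pristine PEEK replicate 1 or 2, and scaled to the spikes 3 were higher and 0 lower.

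Matrix-degrading proteases and lysosomal partners fell in 3 of 15 cases and rose in 1 (20.0% and 6.67%, beside 5.15% and 5.24% of all genes), the higher share being near that of all genes. Mmp9, the gelatinase gene of osteoclasts, went from 4.29 ± 0.20 (SD, n = 3) to below background and was at least 1.48-fold lower (adjusted p = 0.00983 by limma). Scaled to the spikes, neither Mmp9 (adjusted p = 0.0605) nor Ctsl (0.187) passed. Ctsl fell by 0.58 and Mmp12, the macrophage elastase gene, by 5.50. Cst3, the gene of the cathepsin inhibitor cystatin C, rose by 0.48 (adjusted p = 0.0101) and was named after its value was seen. Without pristine PEEK replicate 3 its adjusted p was 0.0521. Ctsb (-0.25) and Lamp2 (-0.25) did not pass.

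**Figure D4:**
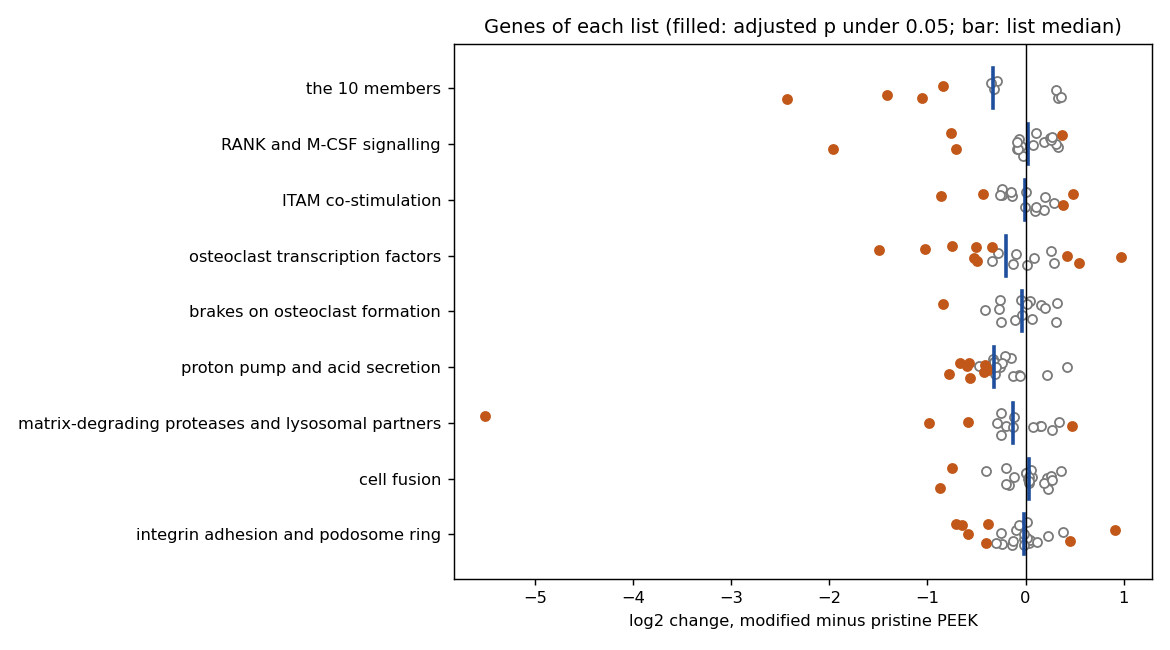
Log2 change, modified minus pristine PEEK, of each measured gene (points) in the 10-gene set and the 8 pathway lists, with the list median (blue bar). Filled orange points passed at an adjusted p under 0.05. The 10 genes have a median of -0.33 and the proton pump list one of -0.32, while the cell fusion list has one of 0.03.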

How the data were processed

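Total RNA from RAW264.7 cells was profiled on 6 Affymetrix arrays from 250 ng each, per the labels' protocols. Deposited values are log2 signals, 1 per probe set and array, between 0.941 and 12.4; the scale was read from the values. The submitters' processing notes name RMA, without a version. If distributions were equalised in that step, a shift common to most transcripts is hidden. Of 29129 features, 19572 probe sets had 1 gene in the platform annotation, 0 several and 2634 transcript probe sets none; symbols were updated through RefSeq gene identifiers. The brightest probe set was kept per gene, giving 19505 genes. No genome build of the arrays was used.

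The comparison used limma 3.58.1 (R 4.3.3) (two-sided, no covariate, 4 residual and 4.09 prior degrees of freedom), with Benjamini-Hochberg adjustment over all genes. Intervals are 95% and unadjusted. The members, lists, background and tests were chosen with earlier results of these data known. All 10 members were named. From each list came up to 3 genes that passed with the largest change and 2 at the highest level that did not, plus 11 genes fixed as partners of the members. Within-array differences of 5 related pairs were added after the data were examined, with an exact permutation test. Fgr and Acp2 were named only for these pairs. A pair difference includes the member's own fall, and the smallest p of 0.1 could not pass at 0.05. Fold bounds set the brighter mean over the background. On simulated data for this comparison (19505 genes, 200 of them changed), limma recovered 9.55% of changes of 0.5, 84.5% of 1 and 98.8% of 2 on the log2 scale, with 4.46% of calls false. In the data 2027 genes were called. The adjustment is stricter when fewer genes change, so these shares need not hold for the data.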

Additional observations from a re-analysis of the deposited data

How the results depend on the processing

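The falls of Atp6v0d2, Acp5 and Dcstamp passed under all 10 alternatives of scaling, filter, probe sets, variance model and replicate block and without each of the 6 arrays; that of Src passed in all but the ordinary statistic without shrinkage (-1.05, adjusted p = 0.0847). The number of the 10 genes that changed ran from 3 to 6 and, without 1 array, from 4 to 5. Tnfrsf11a passed as higher when scaled to the spikes (0.61), without the lowest 25% of genes or those below background, and with an intensity trend (0.36 in each), and Nfatc1 when scaled to the spikes (0.56) and with a trend (0.31). Neither gene passed under the remaining alternatives or with any 1 array left out. Without 1 array, Ctsk ran from -0.51 to -0.18. Of other list genes named as not passing, Tln1 passed as lower under 3 of 10 alternatives. Fcer1g, Ctsb and Lamp2 did so under 2, and Clec5a, Lilrb4a and Cd44 under 1. Cd9 passed as higher under 1. The cause of these shifts was not tested.

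Of all genes, 3305 passed with an intensity trend, 1268 with the replicate block and 1142 to 1863 without 1 array. Pathway list genes that changed numbered 68 with a trend, 22 with the replicate block, 20 scaled to the spikes and 21 to 37 without 1 array. Over these and the other alternatives except left-out arrays the counts were 2 to 5 for RANK signalling, 0 to 7 for ITAM, 5 to 11 for transcription factors, 1 to 5 for brakes, 1 to 17 for the proton pump, 2 to 9 for proteases, 1 to 5 for fusion and 3 to 9 for adhesion. Scaled to the spikes, the sign turned, with no gene passing, for Akt1 (0.16), Fcer1g (0.00456), Spi1 (0.15), Tfe3 (0.12), Lamp2 (0.00134), Cd44 (0.0486), Cdc42 (0.23), Tln1 (0.00422), Tcirg1 (0.18), Itgav (0.19) and Calcr (0.14), and for Itgav without pristine PEEK replicate 1 (without 1 array it ran from -0.12 to 0.0123). Deviations of same-numbered arrays correlated at -0.171, -0.161 and 0.0685, and 2 of 6 arrays correlated best with their own number. With 3 arrays per surface, these values cannot tell whether same-numbered arrays were handled together.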
